A study of Mus musculus with 6 samples.

Results

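The genes described here encode regulators of pre-mRNA splicing: the SR and hnRNP families, the SF3A and SF3B subunits, and the PTB, RBFOX, CELF, MBNL, ESRP and NOVA families. They were chosen by symbol from the probe sets, groups of short probes for a transcript, that the platform annotation gives to 1 gene only. The rule found 57 genes with 176 probe sets among 18193 genes on the array. A gene was tested with its probe set of highest mean log2 intensity if that probe set reached an intensity of 32, a log2 of 5, in at least 3 of the 6 arrays; 54 of the 57 genes passed, of 12927 genes in all. The arrays measured mouse embryonic stem (ES) cells, the pluripotent cells of the early embryo kept in culture, in an undifferentiated state. Of these, 3 came from the Dicer +/- line D4 and the other 3 from the Dicer -/- line 27H, called heterozygous and null cells below. Dicer is the ribonuclease that makes mature microRNAs. Each genotype is 1 cell line, so genotype and line cannot be told apart, and p-values measure only the spread between arrays, which may be technical because the labels do not say whether cultures were separate.

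Splicing joins exons after removing the introns between them, and the choice of exons is set largely by proteins that bind the pre-mRNA. SR proteins, which carry repeats of arginine and serine, mostly favour inclusion of the exons they bind, and many hnRNP proteins oppose it. SF3A and SF3B are parts of the U2 particle, which recognises the branch site in every major intron. The RBFOX, CELF, MBNL, ESRP and NOVA proteins shift exon choice in particular tissues, such as neurons, muscle and epithelium, and MBNL1 and MBNL2 are known to oppose the exon choices of ES cells. Many genes of the SR and hnRNP families hold an exon that, when included, sends their own transcript to nonsense-mediated decay.

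The ES cell markers fixed for the check, among them Pou5f1 and Nanog, all reached 32 in at least 3 arrays, 10 of 10 genes. Their summed intensities were 107491 to 112104 in heterozygous and 101119 to 106714 in null arrays, of which Dppa5a alone gave 32144 to 34856 and 28128 to 33782. Of these 10 genes, 2, with Nanog among them, were higher on every null array and 3, with Pou5f1 among them, lower. The other 5 overlapped, and of all genes tested 57.2% did not overlap. Dicer1 itself read 1117, 1124 and 1053 in heterozygous and 1256, 1132 and 1203 in null arrays with its brighter probe set; the deleted part is not given, so this checks nothing about the genotype. Across tested genes (which do not count as replicates), 2 arrays correlated at 0.967 to 0.973 when from the same line, and at 0.924 to 0.928 otherwise.

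Most splicing regulators differed little between the lines. With limma, null cells had 0 of the 54 called higher (7.23% of all genes) and 2 called lower (6.20% of all genes), where a call needs a Benjamini-Hochberg adjusted p under 0.05 and a difference of at least 2-fold. These were the CELF genes Celf2 and Celf5, and 2 of 54 is 3.70% against 13.4% of all genes tested. At the adjusted p alone, 6 were higher and 20 lower, and at an unadjusted p under 0.05, 7 and 22. The share past the adjusted p was 48.1%, near the background of 48.8% (24.5% higher and 24.3% lower). For 33 of the 54, or 61.1%, the null arrays lay wholly above (8) or below (25) the heterozygous arrays, against 57.2% of all genes. The median log2 difference, null minus heterozygous, was -0.12 for the regulators and -0.01 for all tested genes.

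The balance between directions depends on how arrays are scaled. The deposited values share a trimmed mean; centring each array on its median moved the median of all tested genes up by 0.15, and that of the regulators to 0.03. On that scale the adjusted p passed for 12 higher and 11 lower regulators. Over all genes on that scale, 1263 were called higher and 575 lower, against 934 and 802. The array medians used, over all probe sets, were 44.9 to 52.7, not far above the intensity of 32. Quantile normalization, another rescaling, gave 8 higher and 22 lower regulators at the adjusted p. Their median was then -0.11, and that of all tested genes 0.0024. The genes of 2 chromosomes also stood apart, with a median of 0.31 on chromosome 1 and 0.29 on chromosome 11, against -0.15 to -0.01 on the others; chromosome 11 carries 6 of the regulators and chromosome 1 carries 2. What lies behind these shifts was not tested.

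**Figure D1:**
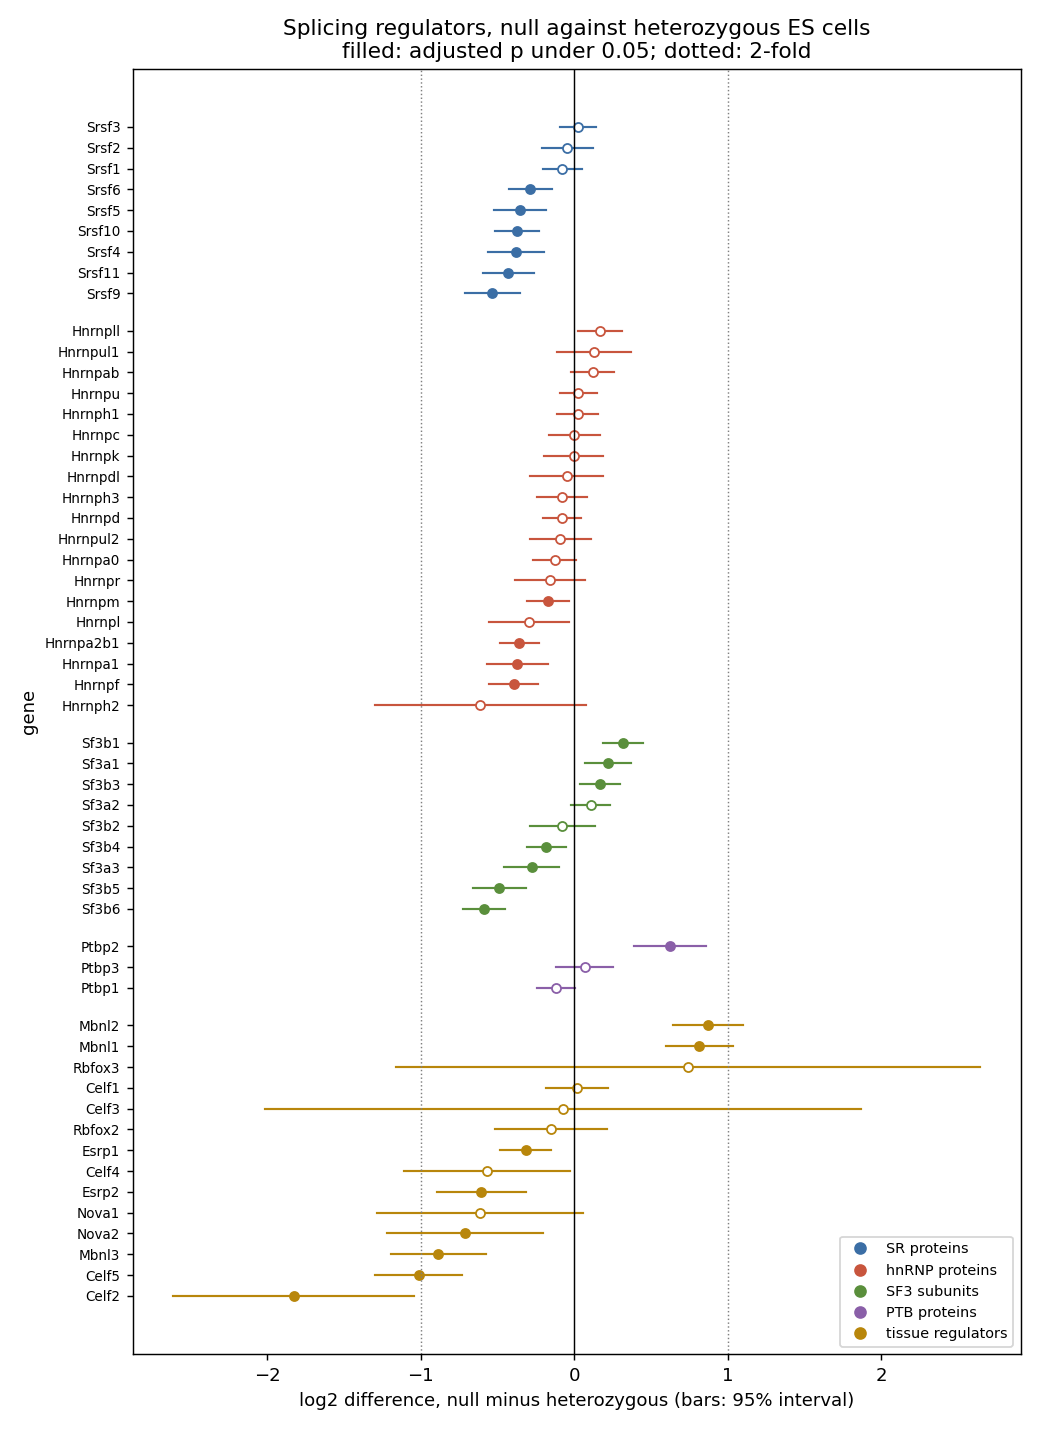
Log2 difference between null and heterozygous cells (x axis) for the 54 splicing regulators tested (y axis), grouped by family, with 95% intervals from the limma fit over 3 arrays a line. Filled points have an adjusted p under 0.05; Celf2 and Celf5 are the 2 such points at or beyond the dotted 2-fold lines, and the SR proteins lie at or below 0 apart from Srsf3 at 0.03.

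Of 9 SR proteins tested, 6 fell on the deposited scale at the adjusted p and 0 rose (the same counts at an unadjusted p under 0.05), none of them by 2-fold, with a median of -0.35; of all genes, 24.3% were lower. Srsf6, counted among the 6, was higher as a mean over its probe sets (0.25). With arrays centred on their medians, 3 SR proteins were lower, 1 was higher and the median was -0.20. Centring shifts every gene alike, so the distance to the median of all genes, 0.34 below it, could not change.

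Srsf9, a short member of the family, read 3161, 3535 and 2938 in heterozygous and 2293, 2258 and 2085 in null arrays. Every null array was below every heterozygous one, and the log2 difference was -0.53 ± 0.08 (SE, n = 3 a line; limma adjusted p 0.000226). Srsf11, an SR protein of divergent sequence first known as p54, read 6815, 6631 and 7633 against 5042, 4967 and 5633, a difference of -0.43. Srsf10, which acts as a splicing repressor once dephosphorylated in heat shock and mitosis, read 2713, 2669 and 2685 against 1988, 2166 and 2078, a difference of -0.37. These 3 genes were past the adjusted p with array centring too.

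Srsf4, Srsf5 and Srsf6 are closely related SR proteins with paired RNA recognition motifs, and all fell on the deposited scale with their brightest probe sets. Srsf4 differed by -0.38 (adjusted p 0.00299), Srsf5 by -0.35 (0.00241) and Srsf6 by -0.29 (0.00297). With arrays centred on their medians the adjusted p values were 0.0647, 0.0551 and 0.181. The null arrays lay below the heterozygous ones for all 3 genes: Srsf5, for example, read 11262, 10963 and 11071 and then 9541, 8878 and 7739.

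Srsf1, Srsf2 and Srsf3, the most studied SR proteins, did not pass the test. Srsf1 read 10232, 10345 and 10376 in heterozygous and 10186, 9832 and 9325 in null arrays, a difference of -0.08 (95% interval -0.21 to 0.05). Srsf2 differed by -0.05 (-0.21 to 0.12) and Srsf3 by 0.03 (-0.09 to 0.14). Srsf1 and Srsf2 lie on chromosome 11, and with each gene centred on its chromosome's median they were at -0.37 and -0.34 (limma adjusted p 0.000331 and 0.0037). On that scale 8 of the 9 SR genes were lower. Srsf12, a relative of Srsf10, was not tested: it read 32.4, 23.6 and 14.2 against 0.723, 19.8 and 24.1, reaching 32 in 1 array.

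**Figure D2:**
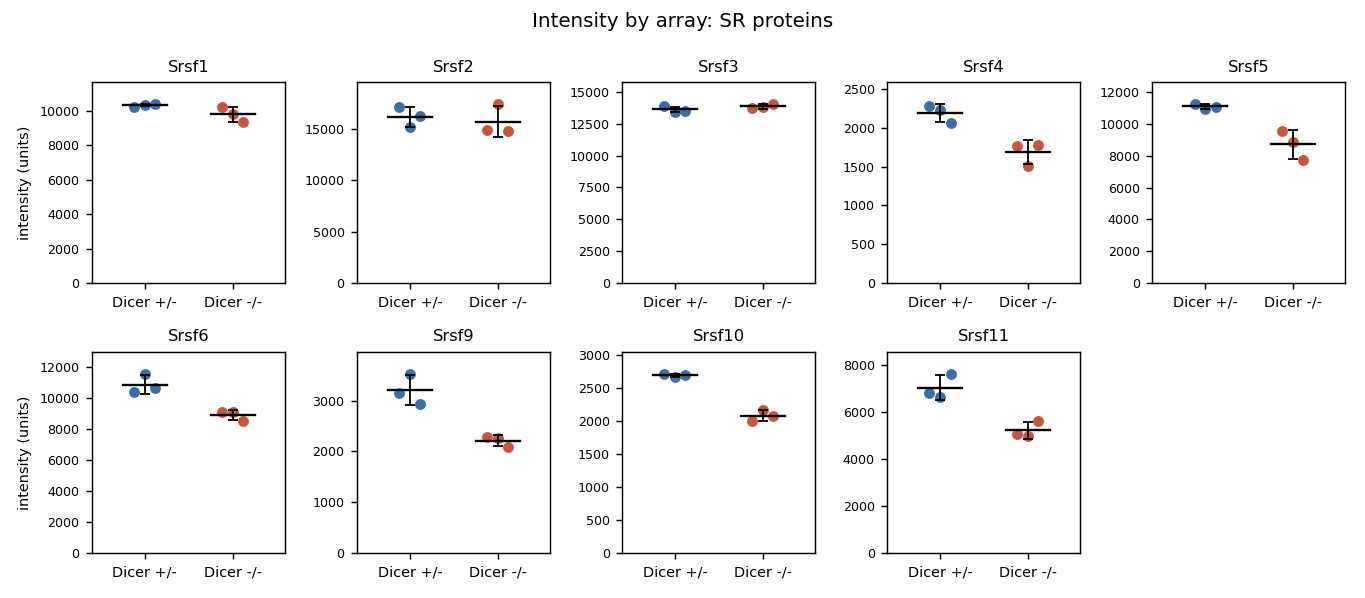
Intensity in arbitrary units (y axis, linear from 0) of the 9 SR proteins on each of 3 Dicer +/- and 3 Dicer -/- arrays (points), with the mean (line) and SD (bar) of each line. Null points lie below all heterozygous points in 7 panels, and overlap them for Srsf2 and Srsf3. Of all 12927 genes tested, 3740 had every null array below. Each panel shows the brightest probe set, and the other probe sets of Srsf6 rose.

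Among 19 hnRNP proteins, which coat nascent transcripts, 4 fell and 0 rose at the adjusted p, against 24.3% and 24.5% of all genes. Their median was -0.08, and at an unadjusted p under 0.05 the counts were 5 and 1. The median turned to 0.07, with 2 lower (Hnrnpa2b1 and Hnrnpf) and 4 higher (Hnrnpab, Hnrnpll, Hnrnpu and Hnrnpul1), when arrays were centred on their medians. Centred instead on the median of chromosome 11, Hnrnpab and Hnrnph1 were lower by limma, at -0.17 and -0.27, as was Hnrnpu, at -0.28, on that of chromosome 1. Hnrnpa1 and Hnrnpa2b1, close relatives that antagonise SR proteins at many exons, and Hnrnpf, which binds runs of guanines, fell with their brightest probe sets. Hnrnpf read 11929, 10979.8 and 10576 in heterozygous and 8806, 8928 and 7771 in null arrays, a difference of -0.39 ± 0.07 (SE, limma adjusted p 0.000892). Its other probe sets, 1456664_x_at, 1450963_at and 1437099_x_at, differed by -0.05, -0.48 and -0.05, none of them unequal to the brightest at the adjusted p. Hnrnpa2b1 read 12369, 11424 and 11902 against 8981, 9496 and 9361, a difference of -0.36 (0.000386), but was at -0.12 as a mean over its probe sets (adjusted p 0.417). Hnrnpa1 differed by -0.37 (0.00543) and was at an adjusted p of 0.112 with array centring and at -0.07 (0.904) without probe sets that can share transcripts; 7 more probe sets name a splicing regulator together with another gene and were left out. Hnrnpm differed by -0.17 (0.04); its adjusted p was 0.876 with array centring and 0.057 to 0.144 when any array but null replicate 3 was left out.

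The other 15 hnRNP genes did not pass. They include Hnrnpc, which binds runs of uridines and read 21397, 20496 and 20621 against 22532, 21801 and 18427, and Hnrnpu, a large nuclear scaffold protein, at 0.03 (95% interval -0.09 to 0.15). Hnrnpll, which sets exon choice in activated lymphocytes, read 7267, 6850.2 and 6689.6 and 8325, 7504 and 7564; all null arrays were above the heterozygous ones, at a difference of 0.17 and an adjusted p of 0.0522. Hnrnph2, an X-linked relative of Hnrnpf, spread most among the hnRNP genes: 1049, 1755 and 2651 in heterozygous and 745, 1116 and 1644 in null arrays, with overlap and a difference of -0.61 (95% interval -1.30 to 0.08; adjusted p 0.13). Its adjusted p was 0.0183 without heterozygous replicate 1 (difference -0.96) and 0.035 without null replicate 3 (-0.90).

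SF3 subunits moved in both directions, with 3 higher and 4 lower of 9 at the adjusted p (24.5% and 24.3% of all genes). Their median was -0.08, which was 0.08 with array centring (4 higher, 2 lower). Lower at the adjusted p were Sf3b6, Sf3b5, Sf3b4 and Sf3a3. Sf3b6, also called p14, which lies next to the branch site, read 6417, 6986 and 6985 in heterozygous and 4629, 4488 and 4457 in null arrays. No null array reached the lowest heterozygous one, and the difference was -0.59 ± 0.06 (SE; limma adjusted p 1.53e-05). Sf3b5, another small subunit, read 12667, 10252 and 11148 against 8525, 7791 and 7905 (-0.49), Sf3a3 differed by -0.28 and Sf3b4, an RNA-binding subunit, by -0.18. The last 2 were not past the adjusted p with array centring (0.288 and 0.783); nor was Sf3a3 without heterozygous replicate 1 (0.0611), or Sf3b4 without heterozygous replicate 2 (0.0911) or null replicate 2 (0.067).

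Higher was Sf3b1, the large scaffold that grips the branch site, at 8738, 8686 and 9306 and then 10859, 11489.9 and 10921, a difference of 0.32 (limma adjusted p 0.000947). It lies on chromosome 1, and centred on that chromosome's median it was at 0.01 (adjusted p 0.909). Sf3a1 on chromosome 11 differed by 0.22 and turned to -0.07 on that scale; its adjusted p was 0.0845 without heterozygous replicate 1. Sf3b3, which packs against Sf3b1 and is on chromosome 8, differed by 0.17 (adjusted p 0.0358), and by -0.13 as a mean over its probe sets. Its adjusted p was 0.0964, 0.119, 0.0992 and 0.0516 without heterozygous replicate 1, heterozygous replicate 2, null replicate 1 or null replicate 3, and 0.0554 with no filter, and without heterozygous replicate 1 only Sf3b1 of the SF3 genes was higher. Sf3a2 at 0.11 and Sf3b2 at -0.08 did not pass.

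Of the PTB proteins, which bind pyrimidine-rich tracts and mostly repress exons, Ptbp2 rose. This paralog, which takes over from Ptbp1 as neurons form, read 2005, 1885 and 2308 in heterozygous and 2863, 3004 and 3704 in null arrays. The lines did not overlap, and the difference was 0.62 ± 0.11 (SE; limma adjusted p 0.000506), a fold of 1.54. Ptbp1, whose protein is known to cause skipping of a Ptbp2 exon and so decay of the Ptbp2 transcript, read 13431, 12699 and 12853 against 12232, 12041 and 11591. Every null array was lower, with a mean difference of -0.12 and a limma adjusted p of 0.101 (0.0492 with quantile normalization). With arrays centred on their medians the Ptbp1 difference was 0.03 (adjusted p 0.706), and with chromosome centring it was -0.05 (0.514). Its other probe sets, 1458284_at and 1450443_at, differed by 0.11 and -0.04. Ptbp3 differed by 0.07 (95% interval -0.12 to 0.25).

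The tissue regulators held the widest differences among the 54 genes, in both directions: of 14 tested, 2 rose and 6 fell at the adjusted p, with a median of -0.44 (-0.29 with array centring, 2 higher and 4 lower). Of all genes, 24.5% were higher and 24.3% lower. Markers of other cell types differed too. Counts of them without overlap are to be read against all genes. Of 12927 genes tested, 3654 were higher on every null array and 3740 lower, 57.2% together. The summed intensity of 7 epithelial markers was 22691 to 24101 in heterozygous and 14974 to 17498 in null arrays, and that of 9 neuronal markers 14643 to 15489 and 16001 to 17553, with Snap25 under 32 in every array. The neuronal genes went both ways: 3, among them Nefl and Stmn2, were higher on every null array, 2, Gap43 and Neurod1, were lower on every null array, and 4 overlapped. Of the neuronal sums, Stmn2 alone gave 8746 to 9103 and 9489 to 10733. Of the 7 epithelial genes, 5 were lower on every null array and 2, with Cdh1 among them, overlapped. All 7 epithelial markers and 7 of the 9 neuronal ones reached 32 in at least 3 arrays. For 7 primitive endoderm markers, all of which reached 32 in at least 3 arrays, the sums were 932 to 1431 and 382 to 424, of which Dab2 alone gave 606 to 827 and 141 to 179. Of these 7 genes, 2 were lower on every null array and 5 overlapped. For 9 fibroblast markers, 7 of which reached 32 in at least 3 arrays, the sums were 536 to 596 and 296 to 333, with Postn under 32 in every array. Of these 9 genes, 7, with Postn counted, were lower on every null array and 2 overlapped. The part of all these markers in the results was not tested, and fewer cells of a type cannot be told apart from less RNA per cell.

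The MBNL genes split. Mbnl1 and Mbnl2 encode zinc finger proteins that promote the exon choices of differentiated tissues, while Mbnl3 is known as an inhibitor of muscle differentiation. Mbnl1 read 530.4, 612 and 656 in heterozygous and 1021, 1099 and 1032 in null arrays, and rose by 0.81 ± 0.10 on the log2 scale (SE; limma adjusted p 4.31e-05). Mbnl2 read 1077, 963 and 995 and then 1718, 1686 and 2172, a rise of 0.87 ± 0.10 (3.72e-05). Both rises were short of 2-fold, at folds of 1.76 and 1.83; Mbnl2 passed it with array centring (1.02). Mbnl3, an X-linked gene, read 357, 411 and 427 against 191, 245 and 212 and fell by 0.88 (0.000298), with no overlap between the lines in any of the 3 genes. As means over probe sets Mbnl2 and Mbnl3 were at 0.24 and -0.32, with adjusted p values of 0.184 and 0.528.

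Promoters are shown for these paralogs that moved apart, Mbnl2 and Mbnl3, and for Ptbp1 and Ptbp2, to let their base composition be compared. Each run is 250 bases before and 50 after the annotated start in GRCm38.p6, from RefSeq, 5′ to 3′ on the gene's strand, with CG dinucleotides in capitals. The windows are chr14:120275419-120275718 (plus strand), chrX:51205941-51206240 (minus), chr10:79854182-79854481 (plus) and chr3:119783339-119783638 (minus).
Mbnl2: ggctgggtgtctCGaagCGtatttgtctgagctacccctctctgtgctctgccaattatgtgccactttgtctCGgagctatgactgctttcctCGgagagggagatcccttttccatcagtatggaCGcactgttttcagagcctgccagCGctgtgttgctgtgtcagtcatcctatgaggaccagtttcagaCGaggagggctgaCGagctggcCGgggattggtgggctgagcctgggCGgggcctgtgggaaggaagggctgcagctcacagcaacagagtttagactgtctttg
Mbnl3: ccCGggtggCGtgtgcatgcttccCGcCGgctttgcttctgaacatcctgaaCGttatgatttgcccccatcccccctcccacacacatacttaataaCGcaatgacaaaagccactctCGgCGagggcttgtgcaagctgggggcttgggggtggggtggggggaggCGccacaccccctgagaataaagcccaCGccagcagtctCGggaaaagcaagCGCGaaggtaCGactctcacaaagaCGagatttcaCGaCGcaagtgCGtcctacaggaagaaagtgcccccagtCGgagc
Ptbp1: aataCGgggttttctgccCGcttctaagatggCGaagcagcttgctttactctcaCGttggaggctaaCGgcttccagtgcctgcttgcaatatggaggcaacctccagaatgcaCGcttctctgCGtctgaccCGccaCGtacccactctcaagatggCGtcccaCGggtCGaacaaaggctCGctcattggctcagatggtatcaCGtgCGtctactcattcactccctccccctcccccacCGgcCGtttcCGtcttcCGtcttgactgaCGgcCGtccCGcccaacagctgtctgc
Ptbp2: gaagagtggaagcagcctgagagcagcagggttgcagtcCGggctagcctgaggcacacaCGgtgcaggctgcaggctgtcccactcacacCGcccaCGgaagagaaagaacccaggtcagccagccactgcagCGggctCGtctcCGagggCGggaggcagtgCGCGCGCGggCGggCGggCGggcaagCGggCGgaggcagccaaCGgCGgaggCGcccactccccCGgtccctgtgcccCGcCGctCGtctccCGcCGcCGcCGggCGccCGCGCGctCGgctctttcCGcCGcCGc
Mbnl2 held 10 CG dinucleotides, Mbnl3 19, Ptbp1 22 and Ptbp2 36. Across the 78 windows of the 48 regulators found in the table the median was 23.5, against 7 in all 32851 windows. All windows come from 27025 genes, tested on these arrays or not, so the regulators were not compared with expressed genes alone. The GC box GGGCGG, searched on both strands, was in 65.4% of the regulators' windows and in 35.7% of all; among the 4 shown it occurred once in Mbnl2 and in Ptbp1, 6 times in Ptbp2 and not in Mbnl3. The ETS core CCGGAAG was in 20.5% against 8.86%, and TATAAA in 11.5% against 13.6%; neither was in the 4 windows shown. Windows of 1 gene can overlap, and a match describes letters only.

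The CELF proteins bind GU-rich sequences and oppose MBNL proteins at some exons. Celf2, abundant in brain, heart and T cells, read 314, 318 and 282 in heterozygous and 92.9, 155 and 43.8 in null arrays, and fell by 1.83 ± 0.36 (SE; limma adjusted p 0.00132), 3.55-fold. Every null array was below the heterozygous ones, though the null arrays spread widely. The other 2 probe sets of Celf2 past the filter differed by -1.56 and -1.06. Celf5, a family member of the brain, read 333, 346 and 333 and then 169, 167 and 165, a fall of 1.01 ± 0.13 (5.90e-05). It sits at the 2-fold threshold: it was at -0.86 with array centring, -0.94 centred on its chromosome and -0.996 without heterozygous replicate 2, with adjusted p values under 0.001 in each.

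Celf4, also neuronal, read 354, 258 and 187 against 175, 225 and 133, with overlap and a difference of -0.57 (adjusted p 0.0789, and 0.0195 without heterozygous replicate 3 or 0.037 without null replicate 2). Its other probe sets were at -0.97 and -1.15, and both were past the adjusted p over all probe sets (0.00114 and 0.00309). Celf1, which acts in most tissues, read 6654, 7275 and 8352 and 7013, 7204 and 8328, a difference of 0.02 (95% interval -0.18 to 0.22). Celf3 was near the floor, at 11.03, 52.6 and 50.95 and 8.62, 57.8 and 50.7, and Celf6, at 8.23, 13.01 and 1.95 and 12.4, 15.4 and 15.6, was not tested.

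The ESRP proteins maintain epithelial exon choices, such as the epithelial form of the receptor FGFR2. Esrp1 read 1486, 1522 and 1469 in heterozygous and 1129, 1263 and 1204 in null arrays, a difference of -0.32 ± 0.08 (SE; limma adjusted p 0.00471, and 0.173 with array centring). Esrp2 read 438, 413 and 411 and then 235, 298 and 302, a difference of -0.60 (0.00255). Neither gene's lines overlapped. A second Esrp2 probe set, 1419977_s_at, read 128, 108 and 112 and 79.5, 121 and 151, with overlap, and as a mean over both the gene was at -0.32 (adjusted p 0.181).

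The NOVA proteins set exon choice in neurons. Nova2 was of low intensity, at 135, 117 and 129.9 and 77.2, 90.7 and 66.8, a difference of -0.71 ± 0.23 (SE; limma adjusted p 0.0245). Its adjusted p was 0.0743 with array centring, 0.0613 with no filter, and 0.0781, 0.0661 and 0.0621 without heterozygous replicate 1, heterozygous replicate 3 or null replicate 3. Nova1 read 72.1, 84.5 and 117 and 66.8, 50.01 and 59.7, all null arrays being lower, at -0.61 (adjusted p 0.121). Of the RBFOX genes, whose proteins act in neurons and muscle, Rbfox2, the member known to work in ES cells, read 468, 392 and 372 and 434, 405 and 282, a difference of -0.15 (95% interval -0.52 to 0.21). Rbfox3 lay around the floor, at 29.1, 9.16 and 61.3 and 13.03, 77.3 and 75.9, and Rbfox1, at 29.3, 18.7 and 9.40 and 35.7, 35.6 and 17.6, was not tested.

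**Figure D3:**
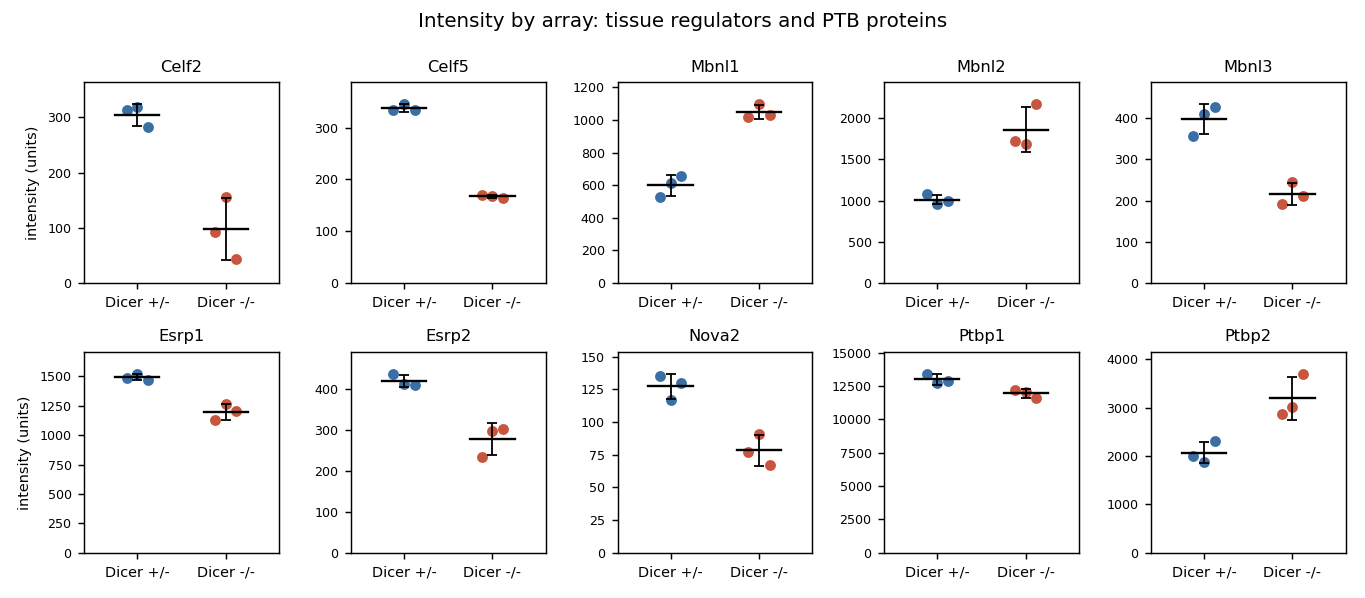
Intensity in arbitrary units (y axis, linear from 0) of 8 tissue regulators and of Ptbp1 and Ptbp2 on each of 3 Dicer +/- and 3 Dicer -/- arrays (points), with the mean (line) and SD (bar) of each line. With brightest probe sets, Mbnl1, Mbnl2 and Ptbp2 are higher on every null array, and Celf2, Celf5, Mbnl3, Esrp1, Esrp2, Nova2 and Ptbp1 lower. The genes shown were picked and all lack overlap, as do 57.2% of all 12927 genes tested. Not shown are Nova1, also lower on every null array, and Celf1, Celf3, Celf4, Rbfox2, Rbfox3 and Ptbp3, which overlapped.

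Probe sets of 1 gene often read different transcript ends or exons, so the change of each further probe set was set against that of the brightest one in the same arrays, a measure in which array scaling cancels. The test asked whether 2 probe sets of a gene changed by unequal amounts. Of 100 such pairs in 40 splicing regulators, 7 pairs in 6 genes were called, with an adjusted p under 0.05 over all 10450 pairs of the array and at least 2-fold inequality. That is 7% of the pairs against 2.98% of all pairs, and 15% of the genes against 4.52% of the 6107 genes with several probe sets. At the adjusted p alone it was 20% of the pairs (20 pairs in 13 genes) against 6.01%. The median absolute inequality was smaller for the regulators' pairs, at 0.25 against 0.29 over all pairs. The regulators also had more pairs a gene (100 in 40, against 10450 in 6107), so more chances of at least 1 call a gene. Pairs were not matched for intensity, on which the spread in the fit can depend. Pairs of 1 gene share its brightest probe set and are not independent, and which part of the transcript each probe set reads was not analysed here.

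Sf3b1 had the largest called rise of one probe set over another among these genes. Its brightest probe set, 1449138_at, and 2 more rose by 0.32 to 0.50, whereas 1418561_at read 195, 288 and 309 in heterozygous and 929.5, 1042 and 1364 in null arrays. That is a log2 difference of 2.08 ± 0.19 (SE; limma adjusted p 1.45e-05 over all probe sets), a fold of 4.24. The inequality with the brightest was 1.77 ± 0.21 (adjusted p 0.00117), and it was called in every alternative run. Being within 1 gene, it does not move with the shift of chromosome 1.

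Srsf3 split both ways around a brightest probe set that differed by 0.03. The probe set 1438215_at read 292, 249 and 183 in heterozygous and 107, 89.8 and 102 in null arrays, an inequality of -1.28 ± 0.23 (SE; limma adjusted p 0.00963). Its adjusted p was 0.0553 and 0.0549 without heterozygous replicates 1 and 2. The probe set 1416151_at read 1773, 1809 and 2057 and then 2952, 2861 and 3511, higher on every null array, with an inequality of 0.70 (0.006).

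In Srsf6 the direction of the gene depended on the probe set. The brightest, 1448454_at, read 10394, 11601 and 10667 in heterozygous and 9114, 9105 and 8539 in null arrays. The next, 1416721_s_at, read 5491, 5295 and 5244 and then 6861, 7335 and 6711, and 1416720_at and 1447898_s_at differed by 0.38 and 0.54. All 3 were unequal to the brightest at the adjusted p, by 0.67 (0.00163), 0.66 (0.0052) and 0.82 (0.00476), each under 2-fold. As a mean over its probe sets Srsf6 was higher in null cells, at 0.25 (adjusted p 0.00284), so the fall of Srsf6 given above belongs to 1 probe set.

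Hnrnpdl and Hnrnpa2b1, paralogs of Hnrnpd and Hnrnpa1, showed the same kind of split. Hnrnpdl, a binder of AU-rich RNA, differed by -0.05 with its brightest probe set. Its probe set 1424252_at read 1318, 1221 and 1268 in heterozygous and 577, 518 and 631 in null arrays, and 1428225_s_at read 942, 706 and 583 and 321, 279 and 297. The inequalities were -1.10 and -1.24 (limma adjusted p 0.00696 and 0.00441); the first had an adjusted p of 0.0666 with eBayes without an intensity trend and was under 2-fold without null replicate 2 (-0.95). For Hnrnpa2b1, 1433830_at read 1471, 1373 and 1327 and then 516, 632 and 763, a difference of -1.14, whereas 1433829_a_at rose by 0.48 and 1434047_x_at by 0.56. Their inequalities with the brightest set, which was lower by 0.36, were -0.78, 0.84 and 0.92, all past the adjusted p. Probe sets ending in _x_at or _s_at can also read related transcripts.

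The other called pairs rested on dim probe sets. Mbnl3's 1434678_at read 103, 112 and 145 and 143, 129 and 120.3, an inequality of 1.02 with the gene's brightest set (limma adjusted p 0.032), which was past the adjusted p without null replicate 3 but not without any other array (0.0544 to 0.118). Hnrnpu's 1434390_at read 125, 172 and 180.3 and 74.4, 69.1 and 89.8 (-1.05, adjusted p 0.0385); without heterozygous replicates 2 or 3 or null replicates 1 or 2 it was at 0.0786 to 0.149. Hnrnpr's 1438807_at read 62.01, 67.3 and 87.3 and was under 32 in every null array, so at least 2.23-fold lower against that floor. With values under 32 raised to 32 its inequality was -1.001 (adjusted p 0.0566), and its adjusted p was over 0.05 when any array was left out (0.0539 to 0.193). Short of 2-fold but past the adjusted p were pairs of Celf1, Hnrnpa1, Hnrnpd, Hnrnpk and Hnrnpul2. Hnrnpul2's 1415765_at, for example, read 1063, 1095 and 1381 against 551, 613 and 517, while its brightest set differed by -0.09.

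**Figure D4:**
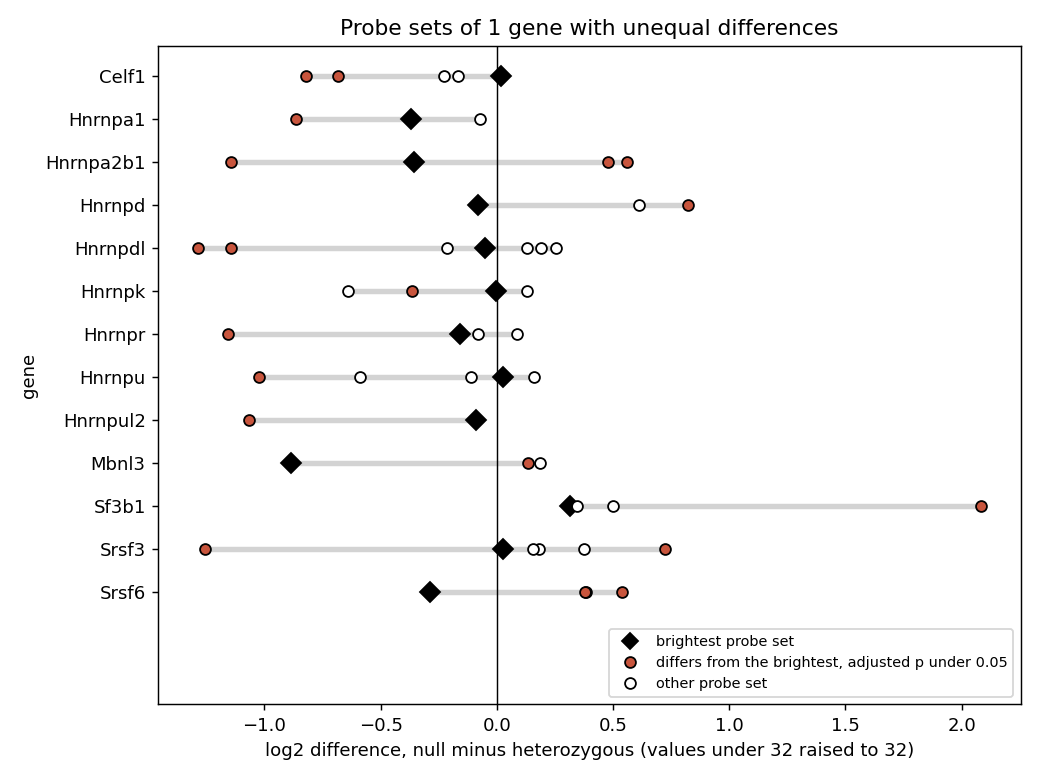
Log2 difference between null and heterozygous cells (x axis) of every probe set past the filter, with values under 32 raised to 32, for the 13 splicing regulators (y axis) with at least 1 pair of probe sets that changed unequally at an adjusted p under 0.05. Diamonds are brightest probe sets and lie between -0.88 and 0.32, and the point farthest from its diamond is Sf3b1's at 2.08.

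**Figure D5:**
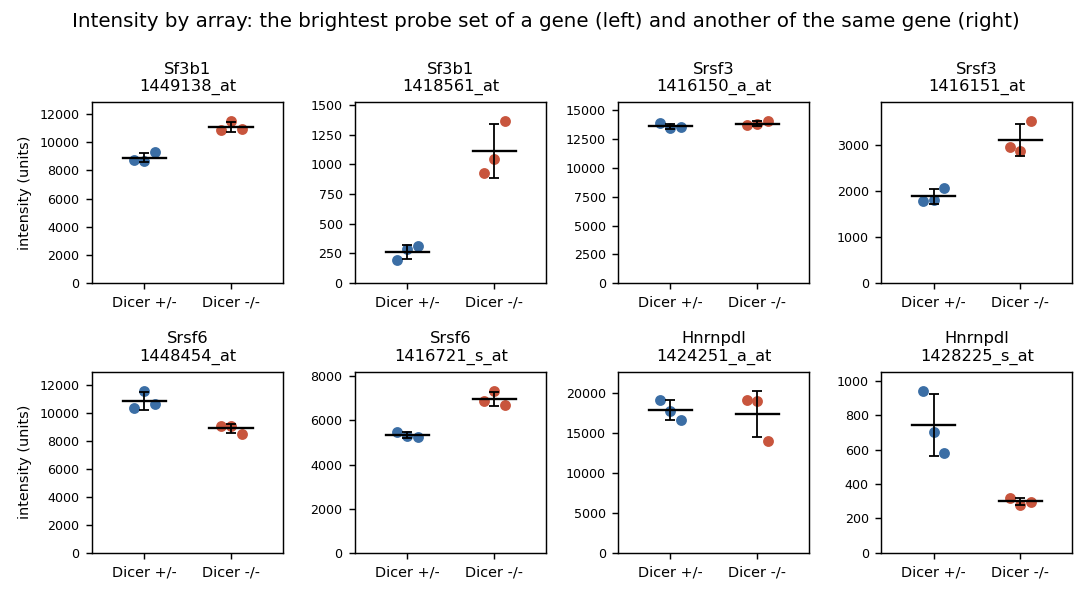
Intensity in arbitrary units (y axis, linear from 0) on each of 3 Dicer +/- and 3 Dicer -/- arrays (points), with the mean (line) and SD (bar), for the brightest probe set of 4 genes and another of the same gene. In Sf3b1 the second set rises more than the first, in Srsf3 it rises and in Hnrnpdl it falls while the lines overlap in the first, and in Srsf6 the pair moves in opposite directions.

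Other genes of the splicing pathway were taken from 4 fixed lists, to be read against 24.5% higher and 24.3% lower of all genes at the adjusted p. For calls, which also need a 2-fold difference, the shares of all genes were 7.23% higher and 6.20% lower. Of 26 SR-related proteins and SR kinases tested (27 listed), 14 fell and 0 rose at the adjusted p (17 and 1 at an unadjusted p under 0.05), with a median of -0.31. With array centring 9 were lower and 2 higher. The CLK kinases phosphorylate SR proteins in the nucleus. Clk3 read 618, 702 and 456 in heterozygous and 308, 228 and 222 in null arrays and was the 1 member called, 2.33-fold lower (limma adjusted p 0.000161). Clk2 differed by -0.89, Acin1, a part of the complex left on spliced mRNA, by -0.64, and Rnps1, which joins the same complex, by -0.62.

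Among 56 snRNP proteins and core spliceosome factors tested (61 listed), 30 fell and 6 rose, with a median of -0.25; 0 were called by limma, against 32 lower and 7 higher at an unadjusted p under 0.05. With array centring the counts were 16 lower and 10 higher. The widest differences past the adjusted p were -0.99 for Lsm6, part of the ring on U6 RNA, -0.97 for the U5 protein Snrnp40, -0.86 for Phf5a, which belongs to SF3B, and -0.86 for Lsm2. Phf5a read 9509, 9370 and 8809.5 in heterozygous and 5407, 5243 and 4596 in null arrays, without overlap.

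Of 39 other RNA-binding regulators tested (46 listed), 18 fell and 2 rose, and 2 were called lower (12 lower, 5 higher and 0 called with array centring). Rbmx, the X-linked hnRNP G, read 209.9, 223 and 206 and then 95.3, 107 and 105 (-1.06), and the neuronal Elavl3 135, 90.2 and 80.01 and 59.1, 53.8 and 28.6 (-1.14). Next among those past the adjusted p were Khdrbs3, a relative of Sam68, at -0.88, and Rbm38, a p53 target, at -0.83. Of 9 exon junction and nonsense-mediated decay genes tested (15 listed), 3 fell and 1 rose (2 and 2 with array centring). Smg5, which helps dephosphorylate the decay factor UPF1, read 1208, 1249 and 1154 in heterozygous and 366, 291 and 397 in null arrays, 3.45-fold lower (limma adjusted p 5.05e-07), while Upf2 differed by -0.43, Smg8 by 0.23 and Rbm8a by -0.20.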

How the data were processed

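Total RNA of 2 ES cell lines, 3 arrays each, was measured on Affymetrix arrays after conversion to biotin-labelled cRNA by in vitro transcription, per the labels' protocols. Deposited were linear intensities of 45101 probe sets, scaled by the authors to a trimmed mean of 500 in every array, as the values show; GCRMA is the only tool in the submitters' processing notes, with its role not given in the sources used here. Per the submitters' titles, the arrays fall into a heterozygous and a null group. No detection calls were used, and intensity has arbitrary units, so the number of arrays limits the precision.

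Intensities were turned into log2 and 64 control probe sets left out. Genes came from the platform annotation (34945 probe sets with 1 symbol), chromosomes from the RefSeq table of GRCm38.p6. Genes were fitted with limma 3.58.1 in R 4.3.3 (lmFit, eBayes with an intensity trend, group as the only term, two-sided, Benjamini-Hochberg over all 12927 genes). The same fit over all probe sets, and one on within-array differences between probe sets of a gene with the dimmer set's intensity as the trend, were run beside it; the fits were tested on simulated data. The design had been written for either scale and provided for log2. Every regulator could be named; values by array were given for those called, those with a log2 difference of at least 0.58 at an adjusted p under 0.05, tissue regulators and PTB genes, with further genes and the probe sets picked as examples after their values were seen. Of each fixed list, called genes and up to 4 with the widest differences among those past the adjusted p are named. The members and lists were chosen with earlier results of these data known. Alternatives changed the filter, floor, scaling, variance prior, replicate block, array weights, probe set rule, chromosome centring and arrays used.

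Same-numbered arrays of the 2 lines deviated together only weakly. The correlations of their deviations from the group means were 0.0328, 0.0279 and 0.0762. Those between arrays of unlike number were lower, at -0.0451 to 0.0103. The labels number the replicates but state no pairing, so the main fit did not take the numbers as pairs. A fit with the number as a block is given below.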

Additional observations from a re-analysis of the deposited data

How the results depend on the processing

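Of 1114 recomputed values of single regulators and called pairs, 990 kept their side of the adjusted p, 40 of them with a sign that turned while neither value passed (12 of the 40 with arrays centred on their medians). Another 69 lost the adjusted p, 43 gained it, and 12 changed sign with the adjusted p passed before or after. Calls among the regulators were 0 higher and 2 lower. With arrays centred on their medians they were 1 higher and 1 lower, and the counts at the adjusted p were 12 higher and 11 lower. Called lower were 4 without probe sets ending in _a_at, _s_at or _x_at (Hnrnpa2b1, Hnrnpdl, Hnrnpr and Celf5), 1 with chromosome centring, and 1 to 2 when an array was left out. Called pairs of regulators were 7, and 4 with no filter and 4 to 6 without an array (4 without heterozygous replicate 2); called pairs of all genes were 311, and 483 with values under 32 raised to 32 and 197 to 278 without an array (197 without heterozygous replicate 1, 202 without heterozygous replicate 2). Without an array, regulators at the adjusted p numbered 4 to 7 higher and 18 to 22 lower.

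The replicate number as a block left 0 and 2 calls among regulators, with 7 higher and 23 lower at the adjusted p, 1746 calls over all genes, and 6 and 389 called pairs. Hnrnph2 passed under the block (adjusted p 1.13e-05) at an unchanged difference of -0.61, and Hnrnpr's pair did not (0.0615). Every array correlated best, among the arrays of the other line, with its own number, which is a hint from the data and not the design.

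Among the lists, SR-related calls were 2, against 1, with no filter and as means over probe sets. Core spliceosome calls were 0, and 1 with quantile normalization or without shared probe sets, 2 as means over probe sets and 0 to 2 without an array. Calls of other RNA-binding regulators were 2, and 1 with a log2 filter of 7, with array weights and with chromosome centring, 0 with array centring and as means over probe sets, 5 without shared probe sets and 1 to 3 without an array. The cause was not tested for any of these.

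The 12 changes of sign with the adjusted p passed before or after were, as means over probe sets, Srsf6 (0.25), Hnrnpc (-0.15), Hnrnpd (0.45), Hnrnpu (-0.31), Sf3b3 (-0.13) and Celf1 (-0.38), without shared probe sets Hnrnpc (-0.29) and Hnrnpd (0.82), and with chromosome centring Hnrnpab (-0.17), Hnrnph1 (-0.27), Hnrnpu (-0.28) and Sf3a1 (-0.0702).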
